A study of Mus musculus with 2 samples.

Results

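Serpins and stefin A genes were examined in the dorsal skin of Mpzl3 null mouse pups and their wild-type littermates. Members were all genes named by a single-gene probe whose symbol begins with Serpin followed by a clade letter from a to i and a number, or with Stfa and a number. The rule found 53 genes, measured by 68 probes, of the 18855 genes that the probes name. They comprised 18 serpins of clade A, 23 of clade B, 9 of clades C to I and 3 stefin A genes. Total RNA of Mpzl3 -/- pups carried Cy5 and that of +/+ littermates carried Cy3 on 1 array at 1 day of age (P1) and on 1 array at 9 days (P9), so the dyes were not swapped. Mpzl3 encodes a membrane protein of the immunoglobulin superfamily. No further allele, treatment or strain is named in the labels, and the number of pups behind each channel was not given in the sources used here. Because the null sample carried the same dye on both arrays, dye and genotype cannot be told apart.

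Serpins are proteins with a mobile reactive loop that a target protease cleaves, after which most of them trap the enzyme in an inactive complex. Clade A members are mostly secreted, many of them by the liver, and clade B members lack a classical signal peptide and act largely inside cells, many of them in keratinocytes and leukocytes. In skin they restrain proteases that take part in shedding of the cornified layer and in inflammation. Stefins of type A are small intracellular inhibitors of cysteine cathepsins. The mouse has several copies of genes that are present once or in a pair in humans, such as the Serpinb3 and Serpina3 clusters and the stefin A genes.

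All values below are log2 ratios, null divided by wild type and averaged over a gene's probes, so that positive values stand for more signal from the null sample. Since each age has 1 array, differences have no replicate check and no p-values were computed. The small number of arrays limits precision. Over all genes with at least 2 probes, the pooled SD between probes of a gene was 0.36 log2 at each age. Among the 13 members with 2 measured probes it was 0.21 at P1 and 0.18 at P9. These SDs cover probes within an array and not animals. The words higher and lower past 2-fold are used of genes whose mean was at least 1 log2 in size with every probe of the same sign. The values are ratios, so neither the level of a gene nor the presence of skin markers could be read from them. Fewer cells of a type and less RNA per cell cannot be told apart in whole skin.

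Mpzl3 itself, measured by 1 probe, was at −0.21 at P1 and 0.20 at P9, which does not check the genotype labels since the position of the probe relative to the deleted part was not given in the sources used here. Sex-linked transcripts moved with the P9 contrast, with Xist at 3.67 and the Y-linked genes Eif2s3y, Kdm5d and Uty at −3.98, −1.76 and −1.99. At P1 Xist was at −1.03 ± 0.77 (SD, 4 probes that did not share a sign) and Uty at 0.33, and the other 2 were blank. Of the 4 Uty probes, 1 was listed at 0 at P9. With 1 array per age, a difference in sex between the channels cannot be told apart from genotype at P9. The part of the sex-linked transcripts in the results below was not tested.

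The promoter windows of 5 members are shown because these genes mark the contrast within the Serpinb3 and Serpina3 clusters. Serpinb3a and Serpinb3c had age differences past 1 log2 and Serpinb3d had a difference of 0.26, and Serpina3b and Serpina3n, of another cluster, were at −1.43 and 0.26 at P9. The windows were chosen after these values were seen. Each window runs from 250 bases before to 50 bases after the annotated start and is taken from RefSeq (GRCm38.p6), 5′ to 3′. The positions are chr1:107052254-107052553, minus strand, for Serpinb3a, chr1:107278322-107278621, minus strand, for Serpinb3c, chr1:107083431-107083730, minus strand, for Serpinb3d, chr12:104127746-104128045, plus strand, for Serpina3b and chr12:104406458-104406757, plus strand, for Serpina3n. Capitals mark letters of a motif, searched on both strands: the TATA box as TATAAA, AP-1 as TGANTCA and STAT as TTCNNNGAA.
Serpinb3a: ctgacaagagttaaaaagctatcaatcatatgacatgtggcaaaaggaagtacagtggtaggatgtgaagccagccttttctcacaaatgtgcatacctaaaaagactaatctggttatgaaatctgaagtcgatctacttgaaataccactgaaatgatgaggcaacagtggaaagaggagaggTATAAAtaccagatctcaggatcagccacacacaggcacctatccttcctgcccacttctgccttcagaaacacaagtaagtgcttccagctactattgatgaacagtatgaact
Serpinb3c: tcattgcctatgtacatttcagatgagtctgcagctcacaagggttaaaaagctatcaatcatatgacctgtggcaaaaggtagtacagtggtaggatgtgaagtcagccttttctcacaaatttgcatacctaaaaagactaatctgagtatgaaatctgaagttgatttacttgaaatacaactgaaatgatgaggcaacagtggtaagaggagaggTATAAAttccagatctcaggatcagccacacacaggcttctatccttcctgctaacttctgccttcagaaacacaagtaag
Serpinb3d: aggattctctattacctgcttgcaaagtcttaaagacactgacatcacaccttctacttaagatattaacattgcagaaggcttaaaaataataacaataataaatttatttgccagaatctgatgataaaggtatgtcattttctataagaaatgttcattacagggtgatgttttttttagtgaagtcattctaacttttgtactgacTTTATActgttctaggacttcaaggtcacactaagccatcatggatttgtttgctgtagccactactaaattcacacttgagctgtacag
Serpina3b: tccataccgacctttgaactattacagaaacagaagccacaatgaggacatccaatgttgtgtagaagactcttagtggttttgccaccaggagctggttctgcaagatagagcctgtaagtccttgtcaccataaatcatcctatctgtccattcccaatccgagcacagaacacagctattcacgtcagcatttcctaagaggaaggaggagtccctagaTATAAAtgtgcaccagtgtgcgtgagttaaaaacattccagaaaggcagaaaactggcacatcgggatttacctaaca
Serpina3n: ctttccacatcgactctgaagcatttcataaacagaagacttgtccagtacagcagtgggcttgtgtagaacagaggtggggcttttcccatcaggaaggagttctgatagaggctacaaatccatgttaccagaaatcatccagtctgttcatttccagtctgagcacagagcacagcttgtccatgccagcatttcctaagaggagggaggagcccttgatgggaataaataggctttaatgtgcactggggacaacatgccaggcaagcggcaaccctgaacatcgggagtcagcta

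The Serpinb3a and Serpinb3c windows were 74.6% identical in a global alignment with gaps counted, and the TATA letters spanned positions −65 to −60 from the annotated start in the first and −31 to −26 in the second. The window of Serpinb3d was 46.5% identical to that of Serpinb3a and 46.7% to that of Serpinb3c. Both are among 17 pairs, the others mostly of genes from different clusters, that ranged from 44.3% to 48.8%. The Serpina3b and Serpina3n windows were 68.6% identical, and the TATA letters were found in the former alone. Serpinb3b, which has no probe named here, had a window 90.0% identical to that of Serpinb3c. Probe sequences were not used here, so how far a probe for one cluster member takes up signal from another is not known, and single members of these clusters are uncertain.

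Across the whole set, 1 member passed 2-fold at P1 and 2 did at P9. At P1 a value was present for 48 members, of which 0 were higher and 1, Stfa2, was lower, against backgrounds of 1.72% of genes higher and 1.17% lower. At P9 a value was present for all 53, of which Serpinb3a was higher and Serpina3b lower, against 2.24% and 0.465% of all genes. The median of the members was −0.15 at P1, where the median of all genes was 0.061, and 0.0090 at P9, where that of all genes was 0.023. Of the 48 members with values at both ages, 13 were below 0 at P1 and above 0 at P9, a pattern held by 11.6% of all genes. The opposite pattern was held by 7 members and by 13.9% of all genes. At P9 29 of the 53 members were above 0, as were 53.4% of all genes. Across the 48 members with both values, the P1 and P9 ratios had Pearson's r = −0.16 and Spearman's rho = −0.0071, whereas across all 16647 genes measured at both ages r was 0.67 and rho was 0.66. These correlations are across genes, which share the arrays, the dye orientation and the probes and are not independent replicates. The 48 members include Serpina3b, Serpinb3a, Serpinb3c and Stfa2, whose ratios changed sign between the ages with large differences. Correlations without these genes were not computed.

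At the lower threshold of 1.5-fold, 1 member, Serpina7, was higher at P1, against 9.08% of all genes. Lower by that much at P1 were 6 members, Serpina3j, Serpinb1b, Serpinb2, Serpinb3a, Serpinb3c and Stfa2, against 6.92% of all genes. At P9 Serpinb3a and Serpinb3c were higher by 1.5-fold, against 6.17%, and Serpina3b and Serpina3j were lower, against 3.3%. The medians of clade A and clade B lay on different sides of 0 at P1. Of 16 clade A serpins 11 were above 0 there, as were 55.8% of all genes, with a median of 0.17. Of 22 clade B serpins 18 were below 0, against 44.1% of all genes, with a median of −0.27. The P9 ratio was below the P1 ratio in 10 of 16 clade A serpins, against 51.9% of all genes. It was above the P1 ratio in 17 of 22 clade B serpins, against 48.1% of all genes.

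**Figure D1:**
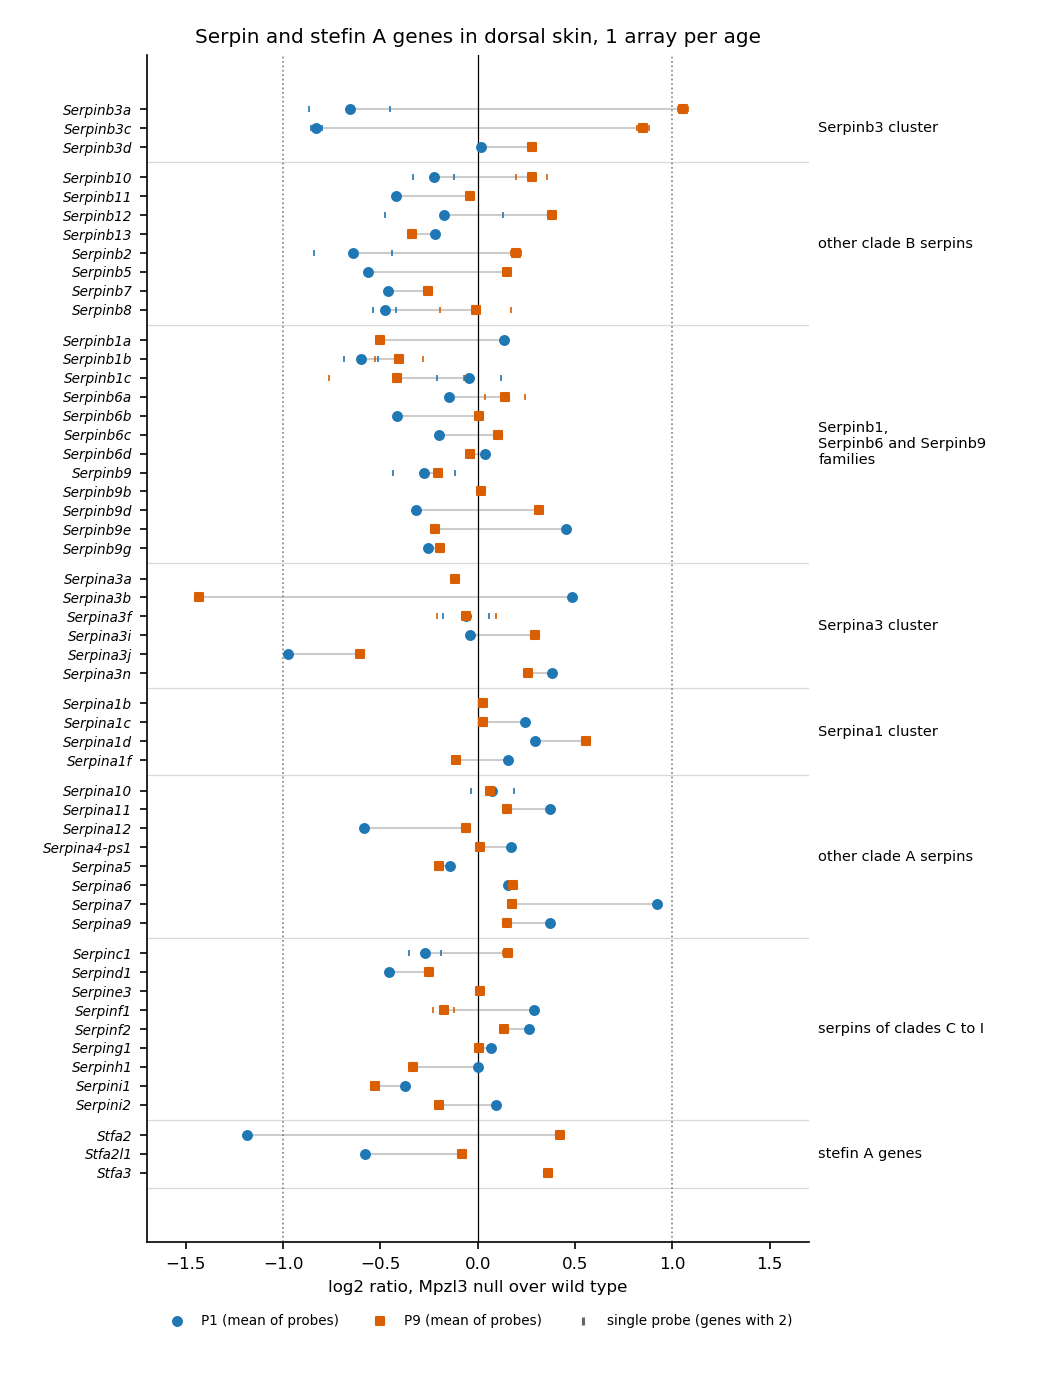
Log2 ratios (null over wild type, x axis) of the 53 serpin and stefin A genes (y axis, by subfamily), with P1 as circles, P9 as squares and single probes as short ticks. Dotted lines mark 2-fold; Serpinb3a at P9 lies beyond the upper one, and Stfa2 at P1 and Serpina3b at P9 lie beyond the lower one.

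The Serpinb3 genes are the mouse relatives of the human squamous cell carcinoma antigens, which inhibit cathepsins and chymotrypsin-like proteases and are made by squamous epithelia. At P1 the 2 probes of Serpinb3a read −0.87 and −0.45, and at P9 they read 1.03 and 1.08. The mean thus went from −0.66 ± 0.29 (SD, 2 probes) to 1.05 ± 0.035, a difference of 1.71 log2. Serpinb3c behaved alike in both probes, which read −0.80 and −0.86 at P1 and 0.82 and 0.88 at P9. Its means were −0.83 ± 0.039 and 0.85 ± 0.041 (SD, 2 probes), and it stayed within 2-fold at each age, but the difference between the ages was 1.68, or 3.20-fold. Serpinb3d, measured by 1 probe, was at 0.017 at P1 and 0.28 at P9, a difference of 0.26. The probe SDs given above are of ratios within an array, so they do not measure the spread of a difference between arrays. Its P1 value was −0.00090 after the arrays were brought to a common centre and spread. The median of the cluster was −0.66 at P1 and 0.85 at P9.

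The other clade B serpins of chromosome 1 flank the Serpinb3 genes on both sides. In the order of the RefSeq assembly, Serpinb5, Serpinb12 and Serpinb13 precede them and Serpinb11, Serpinb7, Serpinb2, Serpinb10 and Serpinb8 follow. All 8 were below 0 at P1, where 44.1% of all genes were, and their median was −0.44. None of them passed 2-fold there, and 0 did at P9. At P9 their median was 0.071, with 4 above and 4 below 0. Serpinb2, the plasminogen activator inhibitor of macrophages and keratinocytes, had the lowest value at P1, −0.64 ± 0.28 (SD, 2 probes), and was at 0.19 ± 0.036 at P9, a difference of 0.84. Serpinb5, or maspin, an epithelial serpin that does not inhibit proteases by the usual mechanism, went from −0.56 to 0.15 on 1 probe.

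Serpinb12 was at −0.17 ± 0.43 at P1, where its 2 probes had opposite signs, and at 0.38 ± 0.018 at P9, the highest of the 8. Serpinb10, a serpin of bone marrow cells, went from −0.23 to 0.28, with both probes of 1 sign at each age. Serpinb8, whose loss in humans causes a peeling skin disorder, was at −0.48 ± 0.083 at P1 and −0.0095 ± 0.26 at P9 (SD, 2 probes). Serpinb7, whose human counterpart is mutated in a palmoplantar keratosis, was at −0.46 and −0.26, and Serpinb11 at −0.42 and −0.042. Serpinb13, an inhibitor of cathepsins K and L in humans, was the only one of the 8 that was lower at P9 than at P1, at −0.22 and then −0.34, and the lowest of them at P9. Over all 11 clade B serpins of chromosome 1, the P9 ratio exceeded the P1 ratio in 10, against 48.1% of all genes. Of these 11, 6 went from below 0 to above 0, against 11.6% of all genes.

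**Figure D2:**
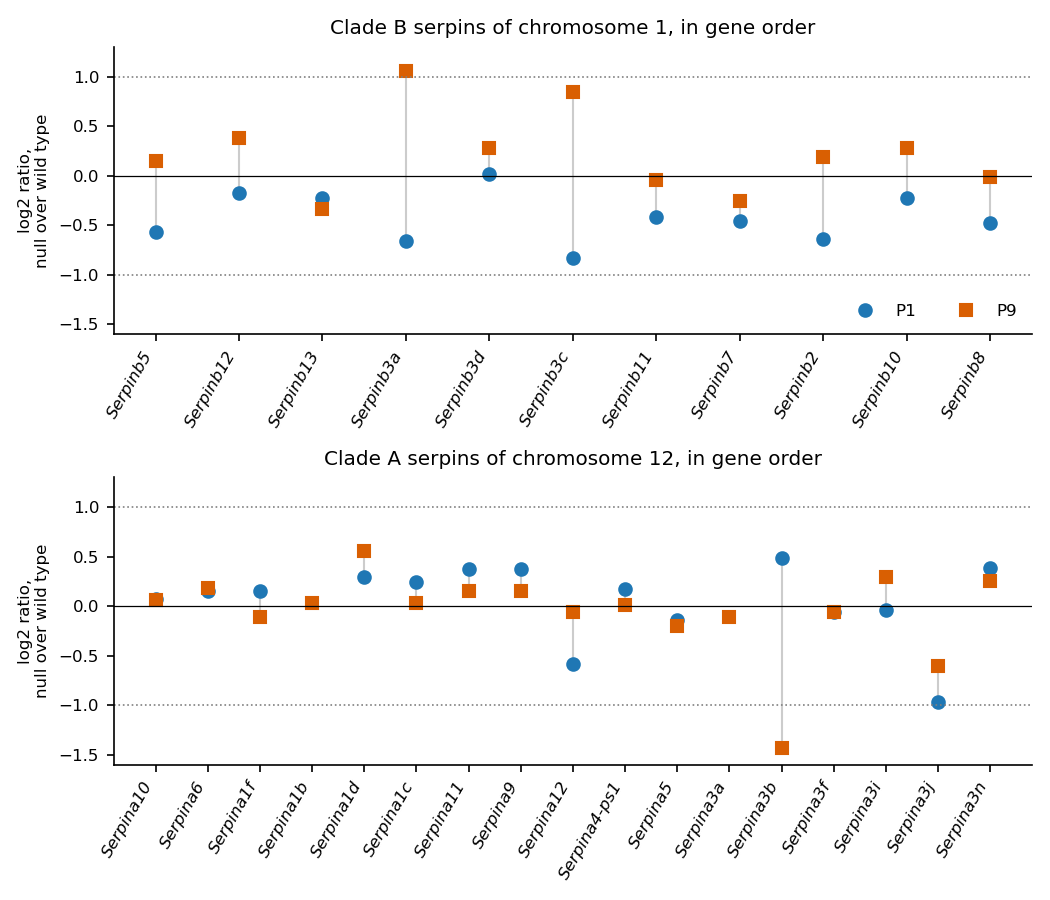
Log2 ratios (y axis, null over wild type) at P1 (circles) and P9 (squares) for the clade B serpins of chromosome 1 (top) and the clade A serpins of chromosome 12 (bottom), each spaced evenly in gene order. On chromosome 1 the squares lie above the circles for 10 of 11 genes, whereas on chromosome 12 they do so for 5 of the 15 genes with both values.

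The promoter windows of the flanking genes held letters that those of the Serpinb3 genes did not. AP-1 is the family of Fos and Jun dimers, which is active in differentiating keratinocytes. Of the flanking genes, 7 had an entry in the promoter table, and the AP-1 letters were found in all 7, in 8 of their 9 windows. They were found in 0 of the 4 windows of the Serpinb3 genes. All 4 of these held the TATA letters, in Serpinb3d on the opposite strand, as TTTATA. Of the 7 flanking genes, 3 held the TATA letters as well. Among all 32851 promoter windows, 7.81% held the AP-1 letters, 8.3% the STAT letters and 13.6% the TATA letters, and among the 67 windows of serpin and stefin A genes the shares were 19.4% for AP-1, 16.4% for STAT and 26.9% for TATA. The contrast was noticed after the ratios were known, and a match of letters is not evidence of binding. The Serpinb3a, Serpinb3b and Serpinb3c windows were 74.6% to 90.0% identical in pairs, so they are not separate cases. Serpinb3b has no ratio here. The windows of Serpinb5, with 1 AP-1 match, and Serpinb8, with 2, are shown as examples, at chr1:106860925-106861224, plus strand, and chr1:107589756-107590055, plus strand, of GRCm38.p6. The AP-1 letters as searched leave the middle base free, and it is A in the Serpinb5 match and G in both Serpinb8 matches. No capitals of different motifs overlap in any of the 7 windows shown.
Serpinb5: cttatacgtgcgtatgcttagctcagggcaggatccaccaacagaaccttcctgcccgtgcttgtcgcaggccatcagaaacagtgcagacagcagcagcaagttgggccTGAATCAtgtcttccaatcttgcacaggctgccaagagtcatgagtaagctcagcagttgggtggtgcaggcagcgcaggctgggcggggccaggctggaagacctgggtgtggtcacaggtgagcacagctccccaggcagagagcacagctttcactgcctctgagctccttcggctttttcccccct
Serpinb8: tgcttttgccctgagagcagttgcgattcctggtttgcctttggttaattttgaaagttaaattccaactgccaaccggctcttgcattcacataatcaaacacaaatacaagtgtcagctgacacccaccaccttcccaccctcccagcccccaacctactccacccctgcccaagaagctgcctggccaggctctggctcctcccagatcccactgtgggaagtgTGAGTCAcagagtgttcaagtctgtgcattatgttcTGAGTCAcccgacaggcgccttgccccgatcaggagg

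The clade B serpins of chromosome 13 are inhibitors of granule proteases and of lysosomal enzymes in leukocytes and other cells. None of the 12 passed 2-fold at either age. Their median was −0.20 at P1 over 11 genes, with 8 below 0, against 44.1% of all genes. At P9 it was −0.12 over 12, with 7 below 0, against 46.6% of all genes. The Serpinb1 genes were all below 0 at P9. Serpinb1a, whose product inhibits neutrophil elastase, went from 0.14 to −0.50, the lowest value of the chromosome 13 genes at P9. Serpinb1b was at −0.60 ± 0.12 and −0.40 ± 0.17 (SD, 2 probes). The 2 probes of Serpinb1c disagreed in sign at P1, and its mean was −0.046 there and −0.42 at P9.

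The Serpinb6 genes ranged between −0.41 (Serpinb6b) and 0.037 (Serpinb6d) at P1 and between −0.039 (Serpinb6d) and 0.14 (Serpinb6a) at P9. Serpinb9, the intracellular inhibitor of granzyme B, was at −0.28 ± 0.23 (SD, 2 probes) at P1 and −0.20 at P9. Its paralogs went both ways. Serpinb9e went from 0.45, the highest value of the chromosome 13 genes at P1, to −0.22, while Serpinb9d went from −0.32 to 0.32, the highest at P9. Serpinb9g was at −0.25 and −0.19, and Serpinb9b, blank at P1, was at 0.017 at P9. The age difference of the chromosome 13 genes had a median of 0.074, against 0.50 over the clade B serpins of chromosome 1 and −0.014 over all genes.

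The Serpina3 cluster holds the mouse copies of the single human antichymotrypsin gene. Its members lay on both sides of 0 at each age. Serpina3b was at 0.48 at P1 and −1.43 at P9 on its 1 probe, or 2.70-fold lower in the null channel at P9, and was the 13th lowest of 18269 genes on that array. Serpina3j was below 0 at both ages, at −0.97 and −0.60, just inside 2-fold at P1. Serpina3n, an acute phase protein that inhibits granzyme B in mice, was at 0.38 and 0.26. Serpina3i went from −0.041 to 0.29, and Serpina3a, blank at P1, was at −0.12 at P9. The 2 probes of Serpina3f disagreed in sign at both ages, with a mean of −0.060 each time. The cluster's median was −0.041 over 5 genes at P1 and −0.088 over 6 at P9.

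The Serpina1 genes encode the copies of alpha-1-antitrypsin, the plasma inhibitor of neutrophil elastase. Their values were small and mostly above 0, with a median of 0.24 over 3 genes at P1 and 0.028 over 4 at P9. Serpina1d was the highest of them at both ages, at 0.29 and 0.56, and Serpina1f the lowest, at 0.15 and −0.11. Serpina1c was at 0.24 and 0.027, and Serpina1b, blank at P1, was at 0.028 at P9.

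The remaining 8 clade A members had a median of 0.17 at P1 and 0.10 at P9. At each age 6 of them were above 0, against 55.8% of all genes at P1 and 53.4% at P9. Serpina7, the X-linked gene of thyroxine-binding globulin, was the highest of all members at P1 at 0.92 and was at 0.17 at P9. Serpina12, or vaspin, an inhibitor of the skin protease kallikrein 7, was the lowest of the 8 at P1 at −0.58 and was at −0.060 at P9. Serpina6, which encodes corticosteroid-binding globulin, was at 0.16 and 0.18, the highest of the 8 at P9. Serpina5, the protein C inhibitor, was at −0.14 and −0.20, the lowest at P9. Serpina9, Serpina10, Serpina11 and the pseudogene Serpina4-ps1 lay between 0.076 and 0.37 at P1 and between 0.0090 and 0.15 at P9.

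Clades C to I hold inhibitors of clotting, complement and fibrinolysis and some members without inhibitory function. None of the 9 passed 2-fold. Serpinc1, or antithrombin, was at −0.27 ± 0.12 at P1 and 0.15 ± 0.035 at P9 (SD, 2 probes), the highest of the clades at P9. Serpind1, or heparin cofactor II, was the lowest at P1 at −0.46 and was at −0.25 at P9. Serpinf1, the pigment epithelium-derived factor of fibroblasts and other cells, was at 0.29 ± 0.020 and −0.18 ± 0.076 (SD, 2 probes). It was the highest of the clades at P1.

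Serpini1, or neuroserpin, an inhibitor of tissue plasminogen activator, was the lowest at P9 at −0.53 and was at −0.38 at P1. Serpinh1, the collagen chaperone of the endoplasmic reticulum, was listed at exactly 0 at P1 and was at −0.33 at P9. Serping1, the complement C1 inhibitor, was at 0.070 and 0.0070, Serpinf2, which inhibits plasmin, at 0.27 and 0.14, and Serpini2 at 0.093 and −0.20. Serpine3, blank at P1, was at 0.014 at P9.

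Each stefin A gene was measured by 1 probe. Stfa2 was at −1.19 at P1, 2.28-fold lower in the null channel and the 98th lowest of 17233 genes, and at 0.42 at P9. Stfa2l1 was at −0.58 and −0.083, and Stfa3, blank at P1, was at 0.36 at P9. Both stefins with a P1 value were thus below 0 there and higher at P9 than at P1. Among all genes, 44.1% were below 0 at P1 and 48.1% were higher at P9 than at P1. Of the 8 further stefin A family symbols that were listed, 2 had a probe. Csta1 was at −0.38 at P1 and −0.089 at P9, and Csta2 was at −1.55 and −0.69, past 2-fold lower at P1.

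The comparison of ages asked which members differed between P1 and P9 in the ratio of null over wild type. The difference was at least 1 log2 in 4 of the 48 members with both values, with 3 higher and 1 lower at P9. Among the 16647 genes measured at both ages, 0.625% were that much higher at P9 and 0.282% that much lower. These were 104 genes above and 47 below, or 176 and 42 after the arrays were brought to a common centre and spread. Serpinb3a, at 1.71, ranked 7th from the top of all genes, Serpinb3c, at 1.68, 8th, and Stfa2, at 1.61, 11th. Serpina3b, at −1.91, ranked 3rd from the bottom. Dye effects were not measured on either array, and their part in the age differences was not tested. No test of the difference was possible with 1 array per age.

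The next members, outside this threshold, were Serpinb2 at 0.84, Serpinb5 at 0.72 and Serpinb9d at 0.63 on the upper side. On the lower side they were Serpina7 at −0.75, Serpinb9e at −0.68 and Serpinb1a at −0.64. By subfamily the median difference was 1.68 for the Serpinb3 cluster, 1.05 for the 2 stefins with both values and 0.49 for the flanking clade B genes. It was 0 for the Serpina3 cluster, where Serpina3f was listed at exactly that value, −0.22 for the Serpina1 genes, −0.11 for the other clade A genes and −0.14 for clades C to I.

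**Figure D3:**
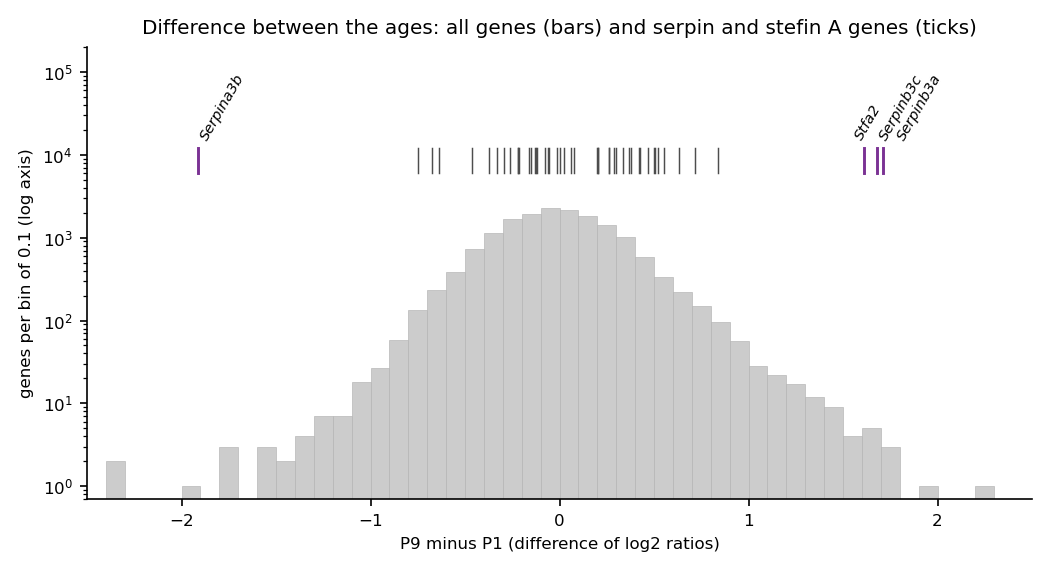
Number of genes (y axis, log scale) by the P9 minus P1 difference of log2 ratios (x axis, bins of 0.1) for all genes, with each serpin or stefin A gene as a tick above the bars. The ticks of Serpina3b, at −1.91, and of Stfa2, Serpinb3c and Serpinb3a, at 1.61 to 1.71, stand apart from those of the other members; genes beyond the x range, such as Xist, are not drawn.

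Cathepsins and serine proteases, the classes of enzyme that these inhibitors act on, were described from lists chosen with earlier results of these data known. The 13 cathepsins with a probe had a median of 0.21 at P1 and 0.25 at P9, and 0 passed 2-fold at either age. Ctsl and Ctss, lysosomal cysteine proteases, were at −0.39 and −0.72 at P1 and at −0.017 and −0.010 at P9. Ctsf was the highest cathepsin at both ages, at 0.53 and 0.50, and Ctso the lowest, at −0.73 and −0.62. Of 13 skin and epidermal serine proteases, Tmprss11f was past 2-fold lower at P1, at −1.28, and Klk6 past 2-fold higher at P9, at 1.17. The list's median was 0.36 at P1 and 0.21 at P9. Klk7, a chymotrypsin-like kallikrein of the cornified layer, was at −0.55 ± 0.57 (SD, 3 probes) at P1 and 0.12 ± 0.24 (2 probes) at P9.

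Leukocyte serine proteases had medians of 0.14 and 0.17, over 13 genes at each age, and 0 passed 2-fold. Elane, which encodes neutrophil elastase, was the highest at P1 at 0.63, and Ctsg, which encodes cathepsin G, the lowest at −0.42. At P9 Tpsg1 was the highest at 0.64 and Prtn3 the lowest at −0.24. The plasminogen and clotting genes had medians of 0.091 and 0.055, with 0 past 2-fold. Plau, the urokinase that Serpinb2 inhibits, was the lowest at P1 at −0.32 and was at 0.36 at P9. F9 was the highest at P1 at 0.80, Proc at P9 at 0.56, and F2r was the lowest at P9 at −0.30.

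Inhibitors of other families had medians of 0.27 over 19 genes at P1 and 0.26 over 17 at P9. At P1 0 of them passed 2-fold, with Wfdc5 the highest at 0.77 and A2m the lowest at −0.69. At P9 Timp4, an inhibitor of metalloproteases, was past 2-fold at 1.22, as was Wfdc2 at 1.17, and Cst6 was the lowest at −0.27. Spink5, which encodes the kallikrein inhibitor LEKTI, went from −0.39 to 0.72, and its difference of 1.11 was the only one in the list past 1 log2. Cstb, the stefin B gene, was at −0.045 and 0.62.

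Markers of other cell types and states were measured beside these genes, and differences between the ages were not tested. Among all genes, 55.8% were above 0 at P1 and 53.4% at P9. Past 2-fold, 1.72% were higher and 1.17% lower at P1, and 2.24% were higher and 0.465% lower at P9. Markers of stressed keratinocytes had a median of 0.17 over 9 genes at P1, range −0.69 to 0.80, and of 0.98 over 8 at P9, range 0.33 to 2.04, where S100a9, Defb14, Defb3 and Krt16 passed 2-fold, at 2.04, 1.27, 1.13 and 1.08. Suprabasal keratinocyte markers had a median of 0.055 at P1 and 0.50 at P9, over 7 and 8 genes, from −1.03 (Dsg1a, past 2-fold) to 0.59 (Krt1) and from −0.79 (Dsc1) to 0.96 (Flg). Basal keratinocyte markers were at 0.12 over 7 genes, from −0.23 (Itga6) to 0.66 (Krt5), and at 0.14 over the 4 that were not blank at P9, from 0.12 (Trp63) to 0.52 (Itga6). Neutrophil markers had medians of 0.13 and 0.32 over 12 genes each and ranged from −0.69 to 0.63 at P1 and from −1.05 (Camp) to 2.04 (S100a9) at P9. Macrophage markers had medians of 0.031 and 0.064 over 10 genes, from −0.76 (Adgre1) to 0.30 (Csf1r) and from −0.67 (Mrc1) to 0.24 (Csf1r). Skeletal muscle markers, all 9 above 0 at both ages, had medians of 0.92 and 0.29, and Myh2, Actn3, Myh7 and Acta1 passed 2-fold at P1, at 1.55, 1.34, 1.32 and 1.14. S100a8 and S100a9 are in both the stressed keratinocyte and the neutrophil list, so these lists are not separate. The part of these cells in the serpin and stefin values was not tested.

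**Figure D4:**
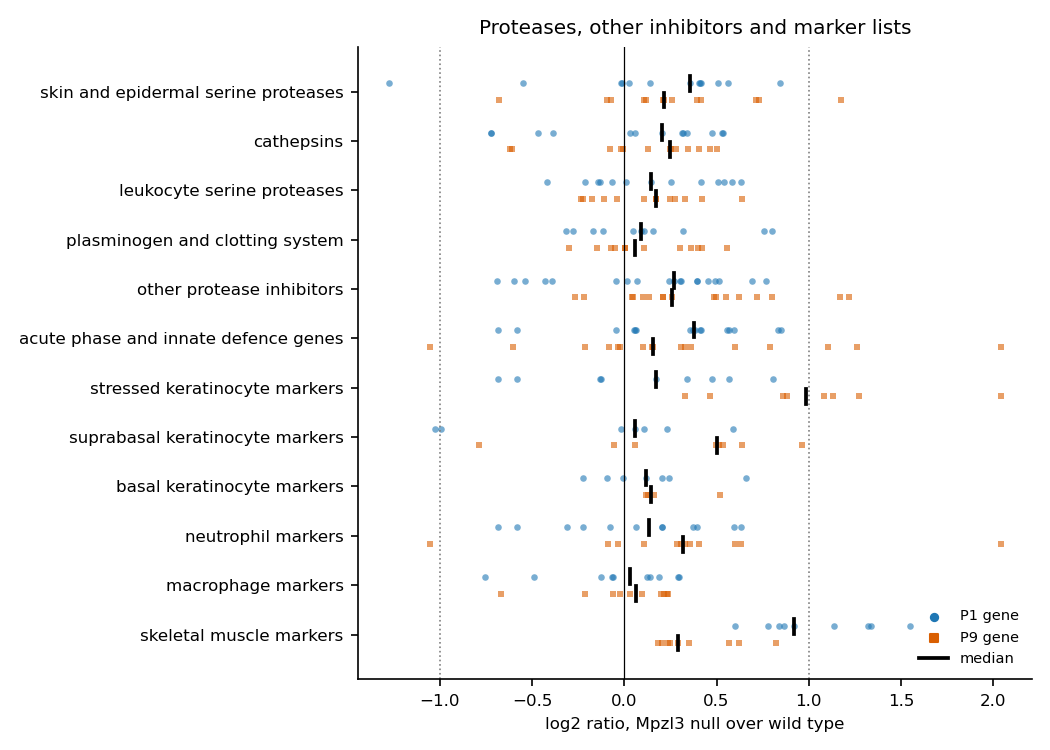
Log2 ratios (x axis, null over wild type) of single genes of protease, inhibitor and marker lists (y axis), with P1 as circles, P9 as squares and the median of each list as a black bar. The medians of stressed keratinocyte markers lie at 0.17 for P1 and 0.98 for P9, while those of the cathepsins lie at 0.21 and 0.25.

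Acute phase and innate defence genes, with which Serpina3n is often grouped, had medians of 0.38 over 16 genes at P1 and 0.15 over 17 at P9. S100a8, S100a9, Camp, Ngp and Ltf are also in the neutrophil list, so their values are the same ones in both. At P1 0 passed 2-fold, with Saa1 the highest at 0.85 and S100a8 the lowest at −0.69. At P9 S100a9 at 2.04, Crp at 1.26 and Lcn2 at 1.10 passed 2-fold higher, and Camp at −1.05 passed it lower. Serpina3n, at 0.26, lay within 2-fold on the same array.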

How the data were processed

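Dorsal skin RNA was labelled with Cy5 (null) or Cy3 (wild type) and hybridised to 2 Agilent Whole Mouse Genome arrays, 1 per age, per the series' design text and the labels. The authors deposited log ratios, read here as log2, in 1 table of 39212 rows. Base 2 was inferred from the largest size, 4.898, which is then 29.8-fold. Not given in the sources used here were the background correction, the dye normalization and the filter behind blank cells (11.3% at P1, 4.71% at P9). Column values had medians of −0.0070 and 0.0050, so they appear centred, in a way that stays unknown. Direction rests on the labelled dyes alone. There were 0 columns of unmapped samples.

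Of the probes, 31337 named 1 gene in the platform annotation, and symbols were updated through Entrez identifiers to RefSeq GRCm38.p6. Of 73 RefSeq genes that match the rule, 20 have no probe named here and were not analysed here. Probe means gave gene values. The members and the 18 gene lists were chosen with earlier results of these data known. Named were all Serpinb3, Serpina3 and stefin A members, members past 2-fold or with an age difference of at least 1 log2, the highest and lowest of each other subfamily at each age, and, of other lists, genes past 2-fold or else the extremes; other genes named were chosen after their values were seen. Promoters were matched by symbol for 46 of 53 members and aligned with Biopython 1.88. Alternatives changed the threshold, the probe summary, the probes, genes and symbols used, and the scaling. Python 3.11.15, numpy 2.4.6 and pandas 2.3.3 were used. The calls were run on simulated data with planted changes well past the threshold and noise between probes only. That run does not cover smaller changes, or variation between animals, dyes or arrays.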

Additional observations from a re-analysis of the deposited data

Results flagged for a closer look

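The ratios of 4 members had opposite signs at the ages, in all probes, with a difference of at least 1 log2, and no test of the difference was possible with 1 array per age. The P9 minus P1 difference was 1.713 for Serpinb3a, 1.68 for Serpinb3c and 1.609 for Stfa2, and −1.913 for Serpina3b. Serpinb3a and Serpinb3c rest on 2 probes each, and Stfa2 and Serpina3b on 1 each. The channels of the P9 array also differed in Xist, at 3.67, and in Y-linked genes. A difference in sex between these channels cannot be told apart from genotype, and its part in the differences was not tested.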

How the results depend on the processing

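Of 54 values recomputed with other settings, 46 stayed within 1.5 times the count or, for medians, within the all-gene probe SD of 0.36, and 8 moved further. All 30 medians of the Serpinb3, Serpina3 and stefin A genes stayed within that SD, which is wider than the members' own. The Serpina3 median at P1 changed sign, from −0.041 to 0.0095, with probes in place of genes. At P9 the Serpina3 mean was −0.28 beside a median of −0.088, and the stefin A median was 0.17 instead of 0.36 with probes measured on both arrays, shifts larger than the members' probe SD of 0.18. The counts of members past the threshold moved in 8 of 24. At 1.5-fold, 7 members passed at P1, 4 at P9 and 10 by their age difference. At 3-fold, 0 passed at P1 and 0 at P9, and all 4 age differences still passed. Shares of all genes past 1.5-fold or 3-fold by age difference were not computed, so these counts of age differences have no background beside them. Among members with at least 2 probes, 0 passed at P1, 1 (Serpinb3a) at P9 and 2 (Serpinb3a and Serpinb3c) by the age difference, since Stfa2 and Serpina3b have 1 probe each. With the arrays centred and scaled to 1 spread, the same members passed, while the counts over all genes went from 296 higher and 201 lower to 168 and 118 at P1, and from 409 and 85 to 567 and 180 at P9. Serpinb3d at P1 and Serpina4-ps1, Serpinb6b and Serping1 at P9, all within 0.02 of 0, changed sign under that scaling. No paired analysis was possible because each age has 1 array. Leaving out a replicate was not possible for the same reason. Without spot intensities, dim and bright probes could not be told apart.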

Other observations

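The remaining marker lists of skin were not used beside a serpin or stefin result. Fibroblast markers had medians of −0.15 at P1 and −0.16 at P9 over 7 genes, with Dcn and Col1a2 past 2-fold lower at P1, at −1.56 and −1.12, and Col1a2 at P9, at −1.20. Adipocyte markers had medians of 0.35 and −0.096 over 8 genes, and 0 passed 2-fold. They ranged from −0.48 (Fabp4) to 0.85 (Plin4) at P1 and from −0.34 (Plin1) to 0.42 (Adipoq) at P9. Mast cell markers had medians of −0.067 over 7 genes and −0.075 over 8, with Mrgprb2 at −1.18 at P1 and Ms4a2 at 1.00 at P9. Hepatocyte markers, listed because the liver makes many clade A serpins, had medians of 0.27 over 5 genes and 0.029 over 7, with 0 past 2-fold. They ranged from 0.086 (Alb) to 0.80 (Tat) at P1 and from −0.17 (Apoa1) to 0.88 (G6pc) at P9. The 2 probes of a member disagreed in sign for 4 of 13 members at P1 and for 2 of 13 at P9.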
